A study of Mus musculus with 6 samples.

Results

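The Hedgehog genes described here are the 3 ligands Shh, Ihh and Dhh, the receptor Ptch1, the signal transducer Smo, the transcription factors Gli1, Gli2 and Gli3, and the ligand-binding inhibitor Hhip. They were taken as every probe set that the array's annotation assigns to exactly 1 of these 9 symbols. That gave 21 probe sets for 9 genes, out of 34945 probe sets with a single symbol and 18193 genes in all. A probe set is a group of short probes read as 1 value, and 7 of the 9 genes had more than 1.

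Hedgehog ligands are secreted by one group of cells and received by their neighbours. Ptch1 holds Smo inactive until a ligand binds it, and Smo then turns the Gli factors from repressors into activators at the primary cilium. Gli1, Ptch1 and Hhip are themselves switched on by the pathway, so their RNA is widely used as a readout of it, whereas Gli2 and Gli3 carry the first step of the response. In the developing urinary tract, Shh is known from the epithelium of the ureter and bladder, where it acts on the surrounding mesenchyme.

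The cells were EGFP-positive cells sorted at E11.5 from mouse embryos and labelled as intermediate mesoderm. One group of 3 samples came from Pax2 heterozygotes, whose titles give EGFP/+, and the other 3 came from Pax2 nulls, whose titles give EGFP/EGFP. There was no wild-type group, and the labels do not say which promoter drives EGFP or how many embryos a sample holds. The 2 genotypes also differ in the number of EGFP alleles, so an effect of EGFP dose on the sort and an effect of genotype cannot be told apart. Pax2 itself is not analysed here. The labels do not state that samples came from separate animals or litters, so p-values measure only sample-to-sample spread, which may be technical. Markers of the labelled tissue were present, since mean heterozygote values were 9.80 for Wt1, 10.59 for Osr1 and 10.64 for Eya1. All values are RMA values on a log2 scale, where a difference of 1 is a doubling, and medians of the arrays lay between 6.12 and 6.24.

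Gli1 rose in null cells, and it was the single gene of the 9 that passed the test over all genes. Shh (by 1 of its 2 probe sets), Hhip and Gli2 had higher means in null without passing. By their brightest probe sets the means of Ptch1, Smo and Gli3 differed by 0.17, 0.13 and 0.30 without passing, and Ihh and Dhh were slightly lower. The threshold was an adjusted p under 0.05 in limma over 18193 genes, each read by the probe set that was brightest on average. Of the 9 genes, 1 rose, against 0.808% of all genes that rose, and 0 fell, against 0.583% (limma). At an unadjusted p under 0.05 in limma, 4 of the 9 genes were positive and 0 negative, against 924 and 846 of all 18193 genes. The median change, null minus heterozygote, was 0.30 over the 9 genes and -0.02 over all genes. The former is the change of Gli3 by a probe set that was brightest on average only through the null arrays. The Gli3 probe set brightest in heterozygotes had a change of 0.06.

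**Figure D1:**
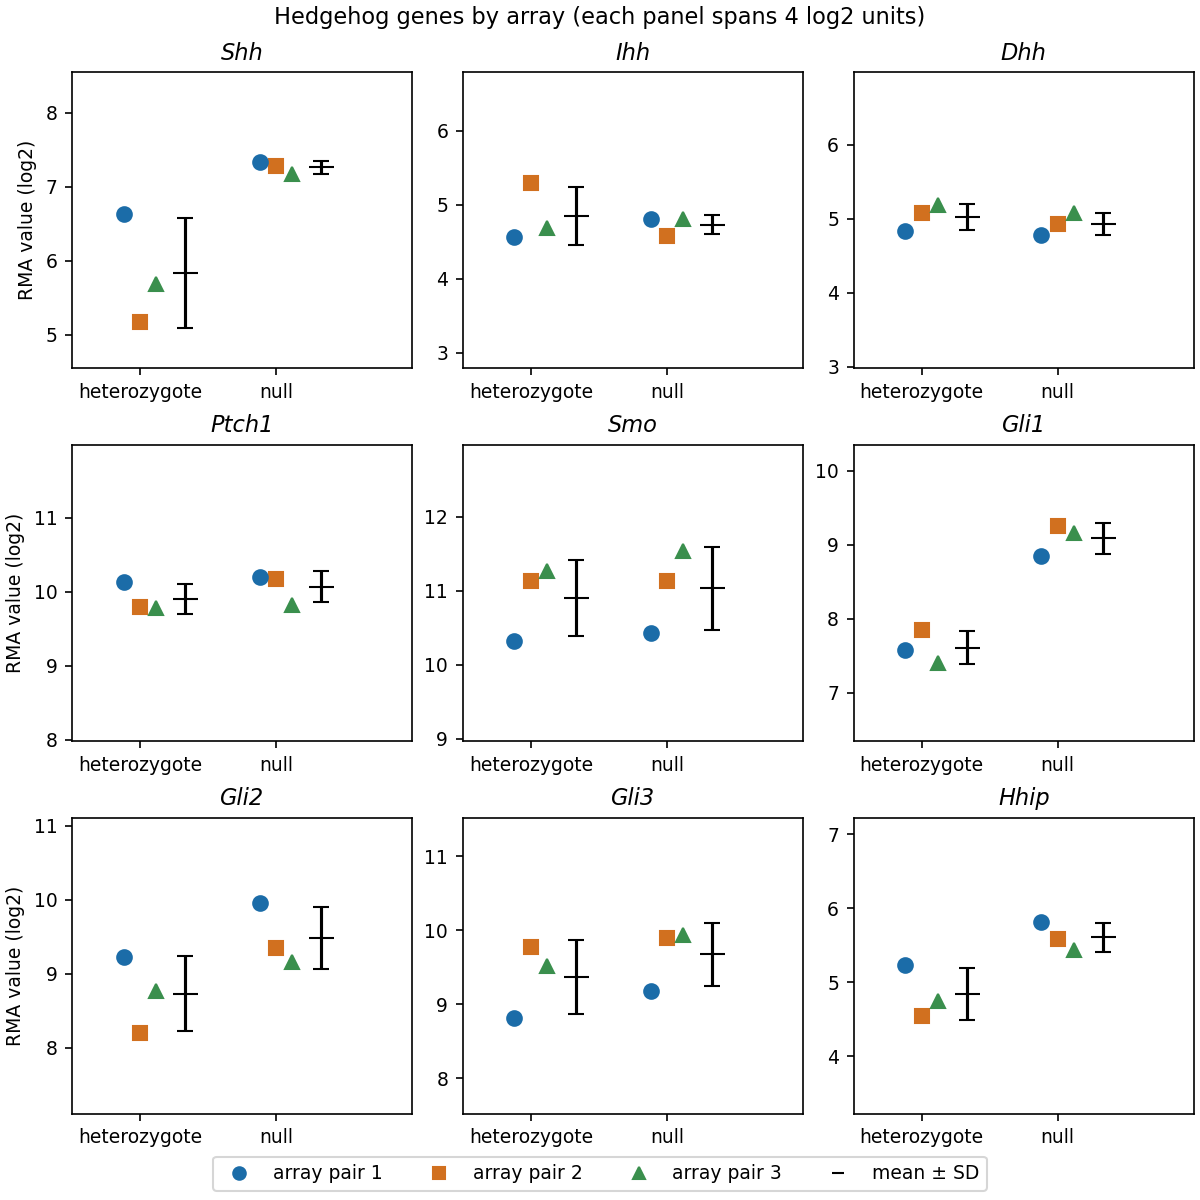
RMA values (log2) of the 9 Hedgehog genes in each array, with heterozygotes on the left and nulls on the right of each panel, symbols for the array pair, and bars for the mean ± SD of 3 arrays. With each gene read by its brightest probe set on average, the Gli1, Shh and Hhip arrays do not overlap between genotypes, and those of the other 6 genes do.

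Gli1, the Gli factor whose RNA depends most on pathway activity, was measured by 1 probe set. It read 7.58, 7.85 and 7.41 in heterozygotes 1 to 3 and 9.26, 9.16 and 8.85 in nulls 1 to 3 (log2). Every null array was above every heterozygote array, with a gap of about 1 log2 unit between the groups. The means were 7.61 ± 0.23 and 9.09 ± 0.21 (SD, n = 3 each), a change of 1.47 ± 0.19 (SE) or 2.78-fold (limma, adjusted p = 0.0123). Over all 45037 probe sets the same value had an adjusted p of 0.0217 in limma, and it was the single Hedgehog probe set of 21 that rose, against 0.391% of all probe sets. The call was lost in limma without heterozygote 3 (adjusted p = 0.0641), null 1 (0.0601) or null 2 (0.0546), while the change stayed between 1.37 and 1.60 in the fits with 1 array left out. In the fit over all probe sets it was also lost without heterozygote 2 (limma, adjusted p = 0.0623).

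Gli2, the main activator of the first response, had 2 probe sets designed from the same source sequence. The brighter read 9.22, 8.20 and 8.76 in heterozygotes and 9.35, 9.16 and 9.96 in nulls. Heterozygote 1 lay above null 2, so the groups overlapped. Its change of 0.76 ± 0.30 did not pass (limma, adjusted p = 0.452). The other Gli2 probe set read 8.22, 7.40 and 7.47 in heterozygotes and 8.41, 8.28 and 8.95 in nulls, with no overlap and a change of 0.85 ± 0.28 (limma, adjusted p = 0.393 over all probe sets).

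Gli3, which acts mostly as the pathway's repressor, had 3 probe sets with changes of 0.06 to 0.30, and the arrays of the genotypes overlapped in each. The brightest on average read 8.82, 9.78 and 9.52 in heterozygotes and 9.90, 9.94 and 9.18 in nulls. Its change was 0.30 ± 0.30, with a 95% interval from -0.39 to 1.0 (limma, adjusted p = 0.938). It was 0.027 without heterozygote 1 and 0.55 without null 3, both arrays of 1 pair found in the hybridization controls. In heterozygotes the probe set with the change of 0.06 was brighter, at a mean of 9.48 against 9.37. The null arrays thus decided which of them stood for Gli3.

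Among the ligands, Shh had 2 probe sets that differed. The brighter on average read 6.63, 5.17 and 5.69 in heterozygotes and 7.28, 7.17 and 7.33 in nulls. All null arrays were above all heterozygote arrays, and the heterozygotes were spread widely (5.83 ± 0.74, against 7.26 ± 0.085 in nulls, SD, n = 3 each). The change was 1.43 ± 0.34 or 2.70-fold and did not pass (limma, adjusted p = 0.113). It did pass without heterozygote 1 (limma, adjusted p = 0.00877). The other Shh probe set read 5.97, 5.82 and 6.01 in heterozygotes and 5.89, 6.05 and 5.45 in nulls, with overlapping groups and a change of -0.13 ± 0.19. In heterozygotes it was the brighter of the 2, at a mean of 5.93 against 5.83. The null arrays thus decided which probe set stood for the gene. The difference between the probe sets was not tested, so the value for Shh rests on which of them is read. With the mean of both, the change of Shh was 0.65 (limma, adjusted p = 0.232).

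Ihh, the ligand known from cartilage and gut, had 1 probe set, which read 4.56, 5.29 and 4.69 in heterozygotes and 4.58, 4.81 and 4.81 in nulls. Its change was -0.11 ± 0.22, with a 95% interval from -0.62 to 0.39. Dhh, the ligand of Sertoli and Schwann cells, read 4.83, 5.07 and 5.18 in heterozygotes and 4.93, 5.08 and 4.78 in nulls by its brighter probe set, a change of -0.10 ± 0.17 (interval -0.49 to 0.28). The groups overlapped for both genes. The second Dhh probe set had a change of -0.40 ± 0.24 (limma, adjusted p = 0.890 over all probe sets). The means over all arrays of Ihh and of the second Dhh probe set lay under the 33rd percentile of all values (4.79).

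Ptch1, the receptor and also a target of the pathway, had 3 probe sets, all with positive changes. The brightest read 10.13, 9.79 and 9.78 in heterozygotes and 10.17, 9.83 and 10.20 in nulls. The groups overlapped, and the change was 0.17 ± 0.18 with a 95% interval from -0.25 to 0.58 (limma, adjusted p = 0.958). A second read 6.28, 6.66 and 6.64 in heterozygotes and 7.52, 7.46 and 6.87 in nulls, with every null array higher and a change of 0.76 ± 0.22 (limma, adjusted p = 0.304 over all probe sets). The third had a change of 0.36 ± 0.37 with overlapping groups.

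Smo, which passes the signal on once Ptch1 is bound, had 3 probe sets with changes of 0.13 ± 0.35, 0.08 ± 0.40 and 0.05 ± 0.45 in the fit over all probe sets. The brightest read 10.32, 11.14 and 11.26 in heterozygotes and 11.13, 11.54 and 10.44 in nulls, and the groups overlapped for all 3. The 95% intervals were wide, from -0.65 to 0.92 for the brightest in the fit over genes, and do not show that Smo was equal in the genotypes.

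Hhip, which binds the ligands at the cell surface and limits their reach, had 4 probe sets with similar changes of 0.77, 0.61, 0.59 and 0.61. The brightest read 5.23, 4.54 and 4.75 in heterozygotes and 5.58, 5.43 and 5.81 in nulls. Every null array was higher than every heterozygote array in 3 of the 4 probe sets, and in the remaining one heterozygote 1 lay above nulls 1 and 2. For the brightest the means were 4.84 ± 0.36 and 5.61 ± 0.19 (SD, n = 3 each), a change of 0.77 ± 0.22 or 1.70-fold, short of the threshold (limma, adjusted p = 0.191). The probe sets of 1 gene share their RNA and are not replicates. The values of 2 of them, from 2.57 to 3.90, lay under the 33rd percentile (4.79) in every array. Another had a heterozygote mean of 4.55, also under it. The brightest was under it in heterozygotes 2 and 3.

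**Figure D2:**
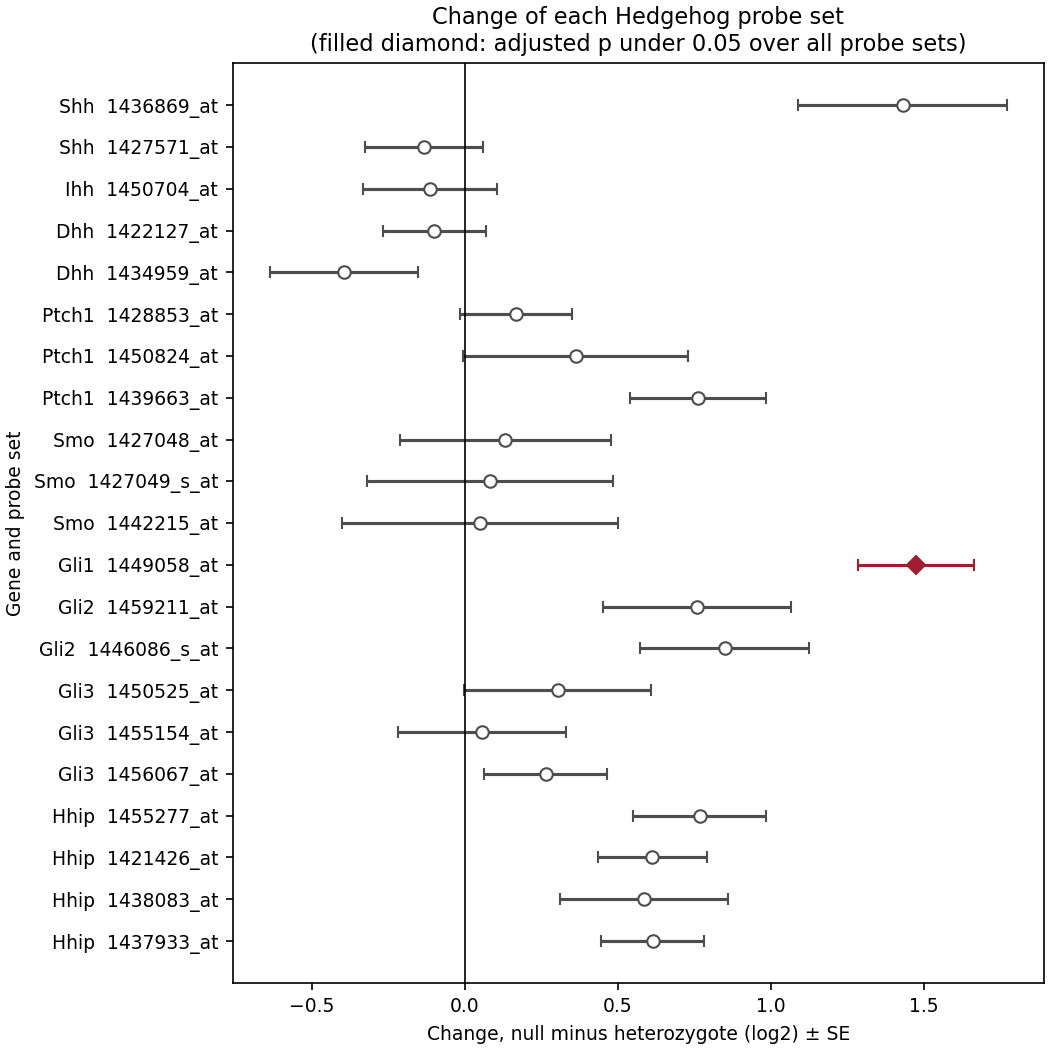
Change of each of the 21 Hedgehog probe sets, null minus heterozygote (log2), with bars for the SE of the limma fit over all 45037 probe sets. The Gli1 probe set, drawn as a filled diamond, had an adjusted p of 0.0217, and 17 of the 21 changes were positive, against 21332 of all 45037.

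Over all 21 probe sets, 17 changes were positive and 4 negative, the latter being 1 of Shh, the 1 of Ihh and both of Dhh. Of all 45037 probe sets on the array, 21332 had positive changes. Null arrays were all higher than heterozygote arrays in 7 of 21 probe sets, against 5.56% of all probe sets. By gene this held for 3 of 9 (Shh, Gli1 and Hhip), against 6.49% of all genes. Shh is counted by the probe set that is brighter through the null arrays, and the groups overlapped in its other probe set. It held in the opposite direction for 0 of 9, against 7.16%. Several of the 21 share a gene, so they are not independent.

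Hhip is a gene that Gli factors are known to activate, and its 4 probe sets lay on 1 side of 0, so the 250 bases before its RefSeq start are shown (GRCm38.p6, chr8:80058009-80058258, minus strand, printed 5′ to 3′). Capitals mark the stretch closest to the Gli motif GACCACCCA.

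Hhip: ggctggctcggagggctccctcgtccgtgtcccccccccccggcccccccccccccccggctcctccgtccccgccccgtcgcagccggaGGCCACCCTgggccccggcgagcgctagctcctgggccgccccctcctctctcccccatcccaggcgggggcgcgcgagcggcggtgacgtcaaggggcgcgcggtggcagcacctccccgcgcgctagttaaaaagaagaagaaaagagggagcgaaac

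Read along the motif, the marked stretch differs by A2G and A9T, with positions counted from the 5′ end of the motif. The motif was searched on both strands of the windows of Ihh, Dhh, Ptch1, Smo, Gli2, Gli3 and Hhip. Exact matches before the start were found in 0 of these 7, against 0.225% of all 32851 windows, and matches with 1 mismatch in 0 of 7, against 5.79%. A stretch as close as that of Hhip was found in 51.8% of all windows, so the marked letters are a description and not a site. Shh and Gli1 were not in the promoter table.

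The labels give no batch, but the bacterial RNAs added as hybridization controls sorted the 6 arrays into 3 pairs of 1 heterozygote and 1 null. Pair 1 was heterozygote 1 with null 3, pair 2 heterozygote 2 with null 1, and pair 3 heterozygote 3 with null 2. The labels do not record this grouping, which rests on the control values alone. In 8 of the 21 Hedgehog probe sets both arrays of pair 1 lay above or both below the other 4 arrays, against 35.8% of all probe sets, a share close to that of the arrays as a whole. The brightest Smo probe set was low in pair 1 (10.32 and 10.44, against 11.13 to 11.54 elsewhere). A second Smo probe set from the same source sequence was high there (9.32 and 9.61, against 8.13 to 8.73). Gli3 had the same split, with 8.82 and 9.18 in pair 1 against 9.52 to 9.94 for one probe set, and 9.83 and 10.08 against 9.15 to 9.38 for another. Probe sets of 1 gene thus moved in opposite directions between pairs. Each genotype has 1 array per pair, so differences between pairs and the spread between its replicates cannot be told apart. What sets pair 1 apart was not tested.

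**Figure D3:**
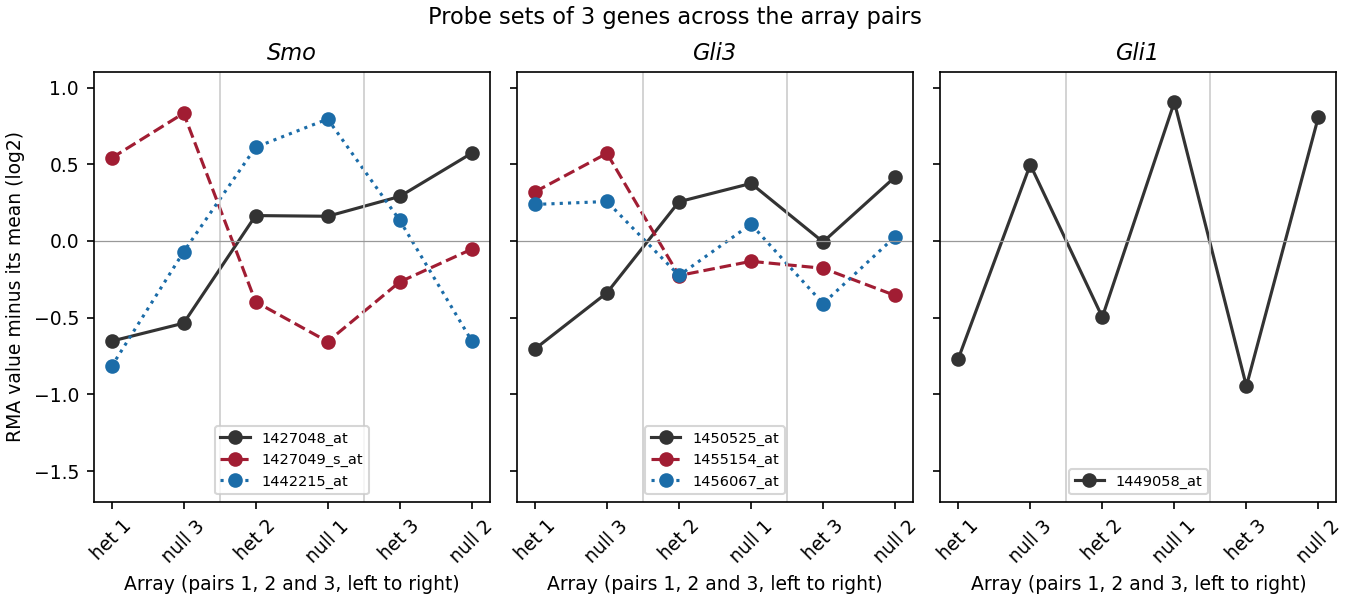
RMA value minus its mean over the 6 arrays (log2) for each probe set of Smo, Gli3 and Gli1, with arrays ordered by pair and each pair given as heterozygote then null. Of the 3 probe sets each, 2 of Smo and all 3 of Gli3 set pair 1 apart from the other pairs, in opposite directions within a gene, whereas Gli1 is higher in the null array of every pair.

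Within pairs, Gli1 was higher in null by 1.27, 1.40 and 1.76 in pairs 1, 2 and 3. The brighter Shh probe set was higher by 0.70, 2.12 and 1.48, and the brightest Hhip probe set by 0.58, 1.04 and 0.68. The brighter Gli2 probe set differed by 0.74, 1.14 and 0.39, and the Gli3 probe set brightest on average by 0.37, 0.12 and 0.42. The Gli3 probe set brightest in heterozygotes differed by 0.25, 0.09 and -0.18. The brightest Ptch1 probe set differed by only 0.07, 0.38 and 0.05, while its second, where all nulls were higher, differed by 0.60, 0.87 and 0.82. Gli1 did not pass without pair 2 (limma, adjusted p = 0.160) or pair 3 (0.244), and Shh passed without pair 1 (0.0338). In total 6 of 9 genes were higher in null in 3 of 3 pairs, against 19.1% of all genes, as were 13 of 21 probe sets, against 17.6%. With the pair as a block, Gli1 (limma, adjusted p = 0.00857), Hhip (0.0396) and Shh (0.0499) passed, so 3 of 9 genes rose, against 2.67% of all genes. In both gene counts Shh was read by the probe set that is brighter through the null arrays. Its other probe set differed by -0.52, 0.08 and 0.04 within pairs. Gli3, also among the 6 genes, was read by a probe set that is brightest on average only through the null arrays. The Gli3 probe set brightest in heterozygotes was lower in null in pair 3, so by it Gli3 would not be counted. Over all probe sets, those of Gli1 and 1 of Gli2 (limma, adjusted p = 0.0444) rose with the block, 2 of 21 against 1.02%, and those of Shh (0.0935) and Hhip (0.0810 for the brightest) did not pass.

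Outside the 9 genes, 47 of 51 listed pathway genes were measured, of which 1 rose and 1 fell (limma, adjusted p under 0.05 over all genes), with a median change of 0.02. Over all genes 0.808% rose and 0.583% fell. Arrays did not overlap between genotypes for 4 higher and 3 lower of the 47, shares close to the 6.49% and 7.16% of all genes. The lists were written with earlier results of these data known. The other listed genes are not analysed here.

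Genes for ligand processing and release held 8 members, 0 of which passed (limma, with 1 at an unadjusted p under 0.05). That one was Scube1, a secreted protein that helps to release ligand, which was higher in null by 1.0 ± 0.38 (limma, adjusted p = 0.402). Under the block by array pair its limma adjusted p was 0.0257. Ext1, a heparan sulfate polymerase, had a change of 0.26 ± 0.21, and Gpc3, a glypican that competes for ligand, 0.17 ± 0.14.

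Among co-receptors, Lrp2 fell. Lrp2 encodes megalin, an endocytic receptor that can bind Shh and is also a gene of renal epithelium. It read 8.12, 8.23 and 8.61 in heterozygotes and 6.22, 7.10 and 6.15 in nulls, with no overlap. The change was -1.83 ± 0.28 (limma, adjusted p = 0.0221), and leaving out null 1, null 3, heterozygote 2 or heterozygote 3 ended the call (adjusted p up to 0.0991). The ligand co-receptors Boc, Cdon and Gas1 had changes of 0.41 ± 0.26, 0.35 ± 0.30 and 0.29 ± 0.33, and none of these 3 passed.

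Of 14 genes for the cilium and Gli control, which include the Gli inhibitor Sufu and the ciliary kinesin Kif7, 0 passed (limma, with 0 at an unadjusted p under 0.05). The smallest p values belonged to Evc2, a ciliary partner of Smo (-0.31 ± 0.15), the ciliary motor Dync2h1 (-0.61 ± 0.33) and the ciliary transport gene Ift172 (0.17 ± 0.15). Of 9 kinase and degradation genes, 0 passed (limma, with 1 at an unadjusted p under 0.05). That was Spop, an adaptor that marks Gli proteins for degradation, with a change of -0.37 ± 0.15 (limma, adjusted p = 0.478). Prkaca and Prkar1a, subunits of the kinase that primes Gli processing, had changes of 0.29 ± 0.17 and 0.15 ± 0.18.

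In the list of 12 measured target genes, Tshz3 rose. Tshz3, a zinc finger factor of ureteric smooth muscle progenitors, read 8.14, 7.10 and 7.19 in heterozygotes and 9.16, 9.01 and 9.66 in nulls, with no overlap. The change was 1.80 ± 0.31 (limma, adjusted p = 0.0342). Leaving out any 1 null array, heterozygote 2 or heterozygote 3 ended the call (adjusted p up to 0.139). The Wnt inhibitor Sfrp1 was higher in null by 1.04 ± 0.25 (limma, adjusted p = 0.116, or 0.00965 under the block), and Cyp26b1, which degrades retinoic acid, by 0.64 ± 0.24 (limma, adjusted p = 0.408), and neither passed over all genes. The biggest change in the other direction was that of Osr1, a factor of early intermediate mesoderm, with -0.81 ± 0.49 (limma, adjusted p = 0.757, or 0.0608 under the block). Bmp4, Ccnd1 and Mycn had changes of 0.24, -0.15 and -0.26 and did not pass either. Foxf1 and Foxl1 had means under the 33rd percentile in both genotypes.

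**Figure D4:**
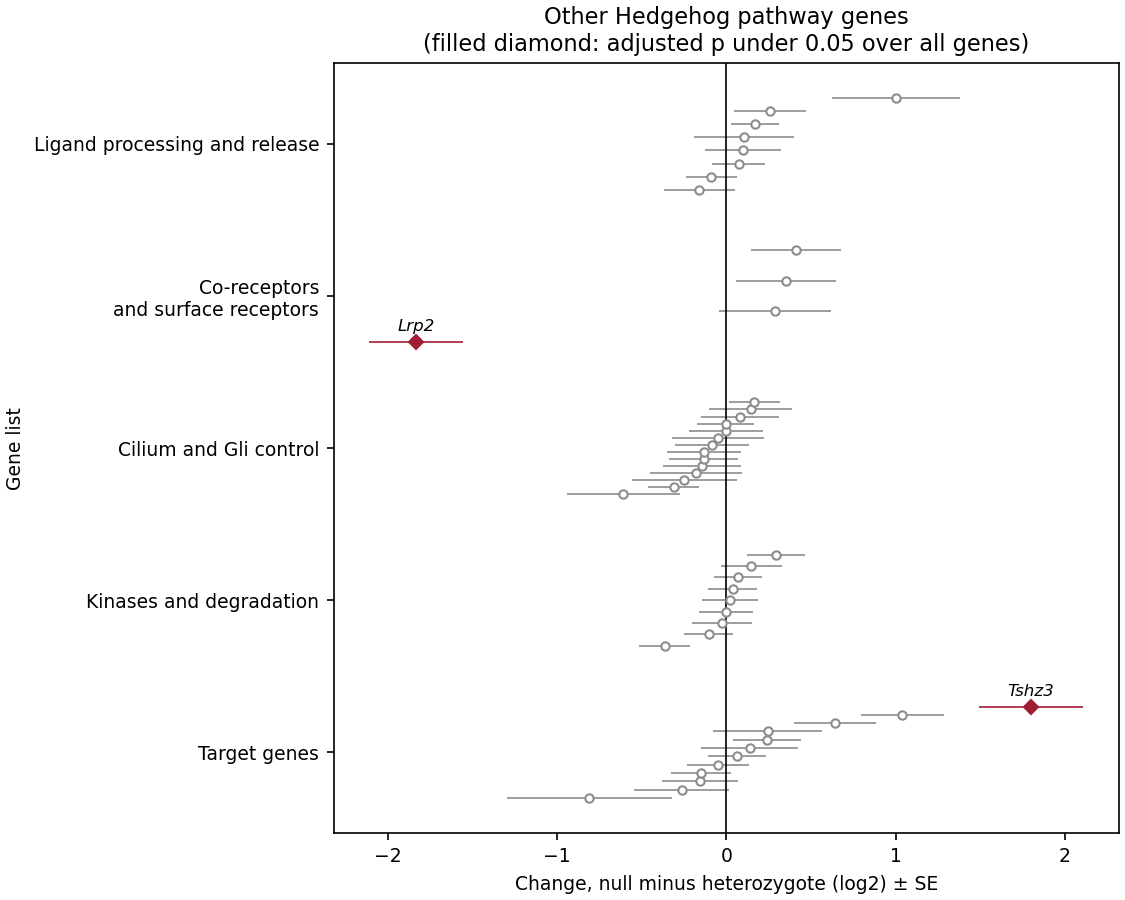
Change of the 47 measured pathway genes other than the 9, null minus heterozygote (log2), by role, with bars for the SE of the limma fit. Lrp2 (-1.83) and Tshz3 (1.80), drawn as filled diamonds, passed over all genes.

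Markers of other cell types also differed between the genotypes, and RNA of sorted cells in bulk cannot tell more cells of a type from more RNA per cell. The marker lists too were chosen with earlier results of these data known. For comparison, 0.808% of all genes rose and 0.583% fell, and 8438 of 18193 had positive changes. Among 9 markers of stroma and smooth muscle, cells that receive Hedgehog signals, 9 had positive changes and Pdgfrb (1.90 ± 0.18), Tbx18 (2.05 ± 0.21) and Postn (1.97 ± 0.24) rose. Their mean value per array ran from 7.59 to 8.33 in heterozygotes and from 9.07 to 9.31 in nulls. Of 8 urothelial markers, 4 rose, namely Trp63 (4.20 ± 0.17), Upk1a (2.32 ± 0.29), Krt5 (1.78 ± 0.21) and Grhl3 (2.40 ± 0.41, from a heterozygote mean of 3.62, under the 33rd percentile), and Upk1b, Upk2, Upk3a and Upk3b did not pass, with changes of 0.04, -0.13, 0.33 and -0.27. The list's mean ran from 5.34 to 5.37 in heterozygotes and from 6.61 to 6.80 in nulls. Trp63 and Krt5 are also 2 of 6 listed markers of surface and basal epithelium, whose mean ran from 5.80 to 6.07 in heterozygotes and from 7.09 to 7.58 in nulls, and whose other 4 genes did not pass.

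Foxa2, a regulator of endoderm, floor plate and notochord, where Shh is made, rose by 2.94 ± 0.28, from 4.50, which is under the 33rd percentile of all values, to 7.44. It was the 1 called gene among 6 measured markers of floor plate and notochord, of which Nkx2-2, Olig2 and Foxj1 had means under the 33rd percentile in both genotypes. Among 8 markers of hindgut and cloacal endoderm it was again the 1 called gene, with 5 changes positive and 3 negative. Foxa1 was higher in every null array (1.07 ± 0.42, with means under the 33rd percentile in both genotypes) and Hnf4a lower in every one (-0.47 ± 0.19), and neither passed. The means of these lists ran from 4.26 to 4.49 against 4.63 to 4.92 in nulls for floor plate and notochord, and from 5.50 to 5.94 against 5.91 to 6.41 for hindgut, where they overlapped. Foxa2 belongs to both lists and had by far the biggest change in each. The changes of the other 5 floor plate and notochord markers were -0.66 for Ntn1, -0.20 for Nkx2-2, 0.21 for Foxj1, -0.03 for Olig2 and 0.01 for Nkx6-1, and none of these passed.

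Gonad markers, which could include cells that make Dhh, had a list mean of 6.30 to 6.59 in heterozygotes and 7.48 to 7.59 in nulls, with 1 of 6 genes called (Hsd3b1, 2.26 ± 0.27). Nr5a1, Gata4, Star, Sox9 and Amh did not pass, with changes of 1.83, 1.45, 0.63, 0.12 and 0.07. Macrophage markers ran from 5.70 to 7.13 and from 7.19 to 8.63 (0 of 6 called in limma, with 4 at an unadjusted p under 0.05). Schwann cell and neural crest markers ran from 6.05 to 6.10 in heterozygotes and 5.79 to 6.28 in nulls, and endothelial markers from 5.07 to 5.36 and 5.14 to 5.64, so these 2 lists overlapped between genotypes. Nephric duct markers were lower in null (9.15 to 9.56 against 6.79 to 7.53, 4 of 7 falling, namely Lhx1, Calb1, Ret and Gata3, with changes of -2.50, -5.97, -3.37 and -1.40), as were those of metanephric mesenchyme (9.67 to 10.14 against 9.13 to 9.34, with 3 of 7 falling). The latter were Gdnf (-2.01 ± 0.17), Sall1 (-1.68 ± 0.26) and Eya1 (-1.04 ± 0.17), while Cited1 rose (1.76 ± 0.33). The null mean of Calb1, 4.52, was under the 33rd percentile. The part of any of these cell types in the values of Gli1, Shh and Hhip was not tested.

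**Figure D5:**
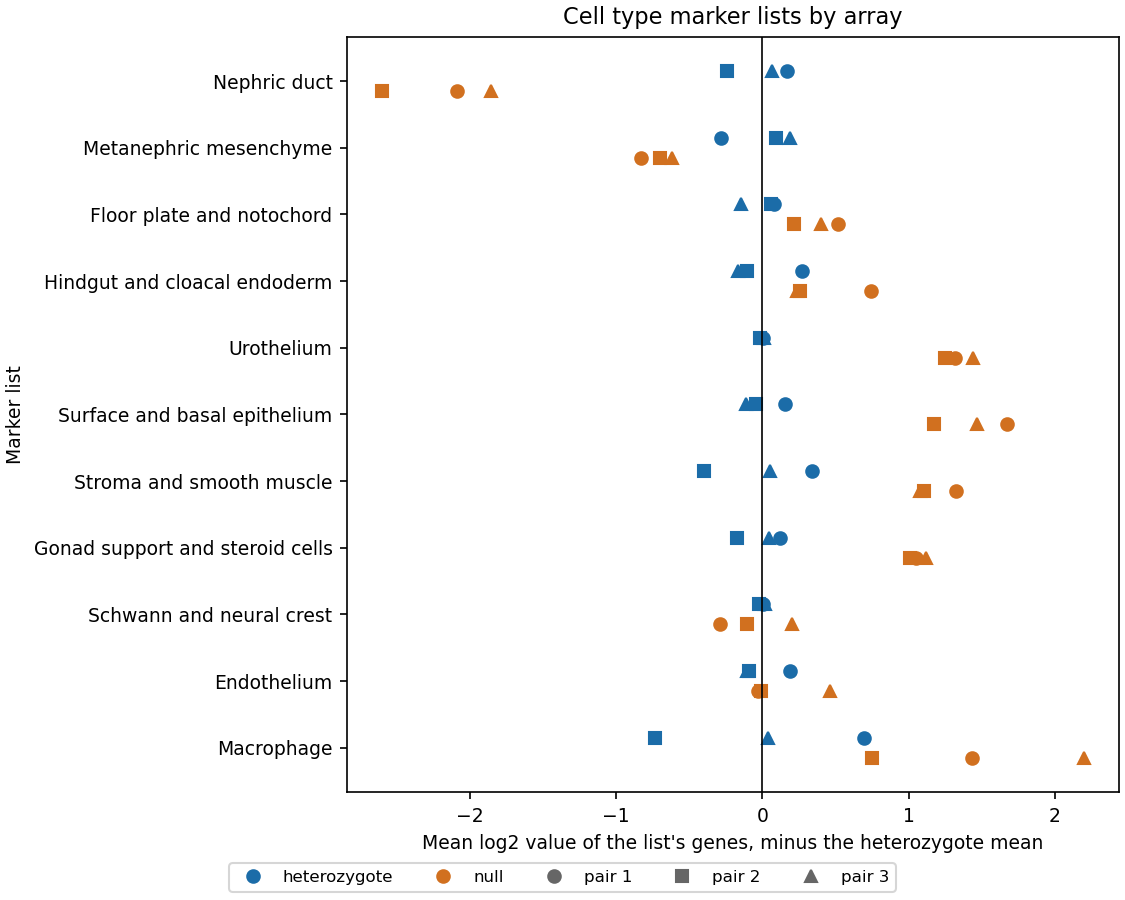
Mean log2 value of each marker list in each array, minus the mean of the 3 heterozygote arrays, with genotypes in colour and array pairs as symbols. Stromal, urothelial, surface epithelial, gonad, macrophage and floor plate lists lie higher in every null array, duct and mesenchyme lists lie lower, and hindgut, Schwann cell and endothelial lists overlap. In the floor plate list Foxa2 changed by 2.94, and the changes of the other genes ran from -0.66 to 0.21.

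The genes whose profile over the 6 arrays was most like that of Gli1 were Adgrb2, an adhesion receptor, Nwd2, and Lpar1, a receptor for lysophosphatidic acid. Likeness was the mean absolute difference of log2 values, each centred on its gene, and it was 0.118 for Adgrb2, 0.125 for Nwd2 and 0.154 for Lpar1. Adgrb2 read 6.20, 6.31 and 6.18 in heterozygotes and 7.71, 7.46 and 7.36 in nulls. All 3 were chosen for this likeness, so their changes of 1.28, 1.25 and 1.25 are a description.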

How the data were processed

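RNA from 6 sorted samples was measured on a 1-colour Affymetrix mouse array, with 10 ng of total RNA as input to amplification, per the labels' protocols. The authors deposited log2 values. The tools named per the submitters' processing notes are RMA, affy and limma, with settings not given in the sources used here. RMA equalizes the distribution of values between arrays, so a difference in total RNA per cell is not visible.

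From the table's 45101 probe sets, 64 array controls were left out of the tests. The platform annotation gave 34945 of the others 1 symbol, and 932 had several and were not named. The test of null against heterozygote was limma's (version 3.58.1, under R 4.3.3), two-sided, by lmFit and eBayes with no covariates. Benjamini-Hochberg adjustment ran over 18193 genes, each read by its brightest probe set on average, and separately over 45037 probe sets. Errors of means are SDs and errors of changes are SEs. Arrays of 1 genotype correlated at 0.976 to 0.991 and none were copies. Precision is limited by the number of arrays.

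The members and lists were chosen with earlier results of these data known. Named genes were the 9 members, the called genes and up to 3 with the smallest p of each pathway list (called genes of each marker list), and the 3 genes most like a called member. Others are named as examples of a count. Pairs of arrays came from 18 hybridization control probe sets, by the smallest summed distance among 15 possible matchings (1.97, the next being 5.06). The main fit over genes was run on simulated arrays without pair structure. The fit over probe sets and the alternatives were not tested in this way. Promoters are RefSeq's (GRCm38.p6), and 7 of 9 members matched. The alternatives were median centring, quantile normalization, array weights, no moderation, robust or intensity-dependent priors, removal of genes under the 33rd percentile, the pair block, omission of each array and the mean over probe sets. Omission of each pair was added after the data were seen.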

Additional observations from a re-analysis of the deposited data

How the results depend on the processing

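The counts of called Hedgehog genes (1 of 9), called Hedgehog probe sets (1 of 21), called other pathway genes (2) and all called genes (253) stayed within 1.5 times under both priors, the filter, and both normalizations, and the gene counts also with the mean over probe sets. With array weights they were 3 (Gli1, Shh and Hhip), 2, 2 and 553, and with the array pair as a block 3, 2, 4 and 830. Without moderation of the variances they were 0, 0, 0 and 3 (3 of the 9 genes, 6 of the 21 probe sets and 6 of the other pathway genes were at an unadjusted p under 0.05). With 1 array left out they ran from 0 to 2, 0 to 2, 0 to 2 and 84 to 318, and in such fits 3 or 4 of the 9 genes had an unadjusted p under 0.05. Shares of all genes at that unadjusted level were not counted in the alternatives. Without pair 1 they were 2, 0, 1 and 251, without pair 2 they were 0, 0, 0 and 1, and without pair 3 they were 0, 0, 0 and 2. Those fits hold 4 arrays. The change of Gli1 stayed positive in all 18 alternatives, from 1.33 to 1.60, and 12 of them called it. Its adjusted p ran from 0.00360 (limma with array weights) to 0.249 (linear model without moderation). The mean over probe sets, 1 of the 12, left its values as they were, since Gli1 has 1 probe set. Direction turned in some fits with 1 array left out, where changes ran from -0.26 to 0.11 for Ihh, from -0.26 to 0.038 for the dimmer Shh probe set and from -0.014 to 0.64 for 1 Ptch1 probe set. For the Smo probe sets they ran from -0.16 to 0.43, -0.31 to 0.43 and -0.35 to 0.39, and for 1 Gli3 probe set from -0.22 to 0.25. Ihh was at 0.19 without pair 2, and 1 Smo probe set at -0.10 with array weights. No paired analysis by replicate number was made because the labels give none. The causes of these shifts were not tested. Signal over background limits Ihh, the dimmer probe set of Dhh and, at least in heterozygotes, every probe set of Hhip.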
